A study of Mus musculus with 39 samples.

Results

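In a set of 39 cells picked singly from the livers of adult mice, 6 were hepatocyte-like, and they are described here across all measured genes against the other 33. All 39 cells were GFP-positive cells of 1 group, sorted from livers carrying Krt19CreERT, an inducible Cre recombinase driven by the bile duct keratin gene Krt19, together with the reporter Rosa26CAG-EGFP. Green colour is inherited by all descendants of a cell in which this Cre was once active, so the label marks a lineage and not a present level of Krt19. Each cell was picked on its own into lysis buffer. The labels name no animal, age, sex, treatment or sequencing run, and no cell is a replicate of another, so no test was made and no error can be given over animals.

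The 6 cells were chosen by a measured value. A cell belonged to the set when Apoa1, which forms the bulk of the protein in high-density lipoprotein, reached 100 CPM (read counts scaled to library size), which was the case in cells 1, 2, 3, 4, 38 and 39. They make up 15.4% of the 39 cells (exact Clopper-Pearson 95% interval 5.86% to 30.5%, which covers the choice of cells only). The interval takes each of the 39 as 1 independent cell, which the labels do not show. Just inside the threshold lay cell 39 with 4977 CPM of Apoa1, and just outside it cell 31 with 95.01 CPM, followed by cell 22 with 0.519 CPM. Because all genes of a cell come from 1 transcriptome, every difference given below between the 6 cells and the others is a description of how the chosen cells looked.

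Hepatocytes are the parenchymal cells of the liver. They make most proteins of the blood plasma, turn ammonia into urea, keep blood glucose up during fasting, make bile acids and break down drugs and toxins. These tasks are divided along the liver lobule: cells near the portal vein (periportal) lead in urea and glucose synthesis, and cells around the central vein (pericentral) lead in glutamine synthesis and in many cytochrome P450 enzymes. Bile duct cells (cholangiocytes), the cell type in which Krt19 is known to be active in adult liver, line the ducts that carry bile away.

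Cells 38 and 39 differ from the other 37 in the pattern of their low values. In a single profile the lowest values repeat at whole multiples of what 1 read is worth. This held in cells 1 to 37, where 25.5% to 43.8% of the values between 0.01 and 1 CPM lay within 0.1% of a multiple of 1 step. In cell 38 only 8.99% of 3204 low values did so, but 17.3% lay on 15 values expected when the logarithms of 2 profiles with steps of 0.0818 and 0.0849 CPM are averaged. In cell 39 the shares were 15.0% and 31.0% of 3240 low values, with steps of 0.141 and 0.280 CPM. For both cells the 2 steps were the pair, taken from the same values, that gave the most matches. No such pair was fitted in cells 1 to 37, so the shares on 1 step and on 2 profiles are not like measures. The value expected for 1 read in both profiles, 0.204 CPM in cell 39, occurred for 53 transcripts, and the value for 1 read in the second profile alone for 475. Both columns thus look like log-scale means of 2 profiles each, and whether these were 2 cells or 2 libraries of 1 cell is not given in the sources used here. In such a mean a transcript at 10000 CPM in 1 profile and absent from the other would appear at 40.7 CPM. Results are therefore also given for cells 1 to 4 alone.

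**Figure D1:**
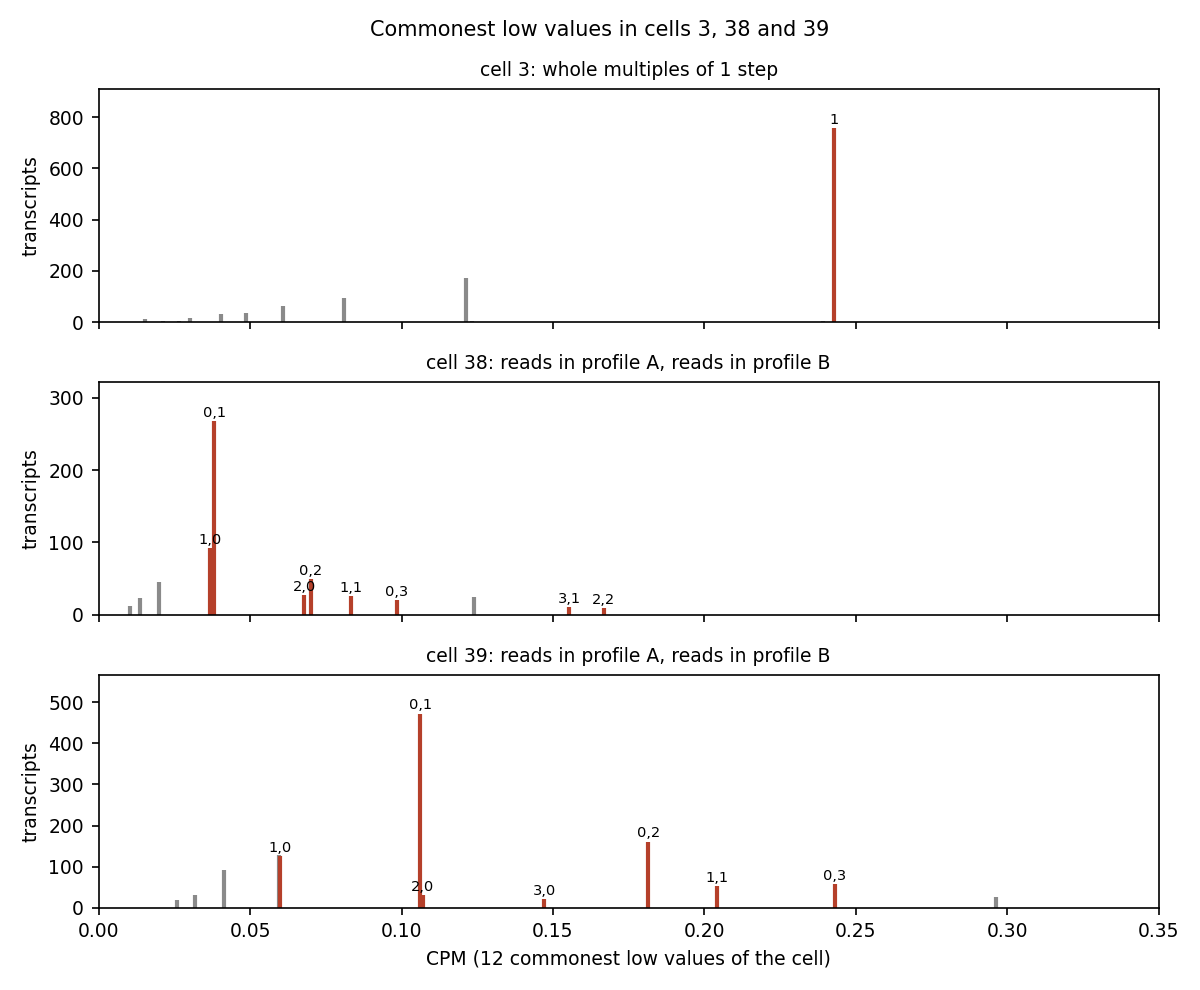
The 12 commonest low values (horizontal axis, CPM) of cells 3, 38 and 39 against the number of transcripts holding them. Red lines lie on a pattern of whole reads, named above them as reads of a single profile (cell 3) or as reads in profile A and reads in profile B (cells 38 and 39), and grey lines are other values, such as the fractions to the left of 1 read in cell 3.

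Depth also differed. By the worth of 1 read, cells 1 to 4 held 8702000, 5512000, 3302000 and 2197000 reads (to the nearest 1000), against 5977000 to 36686000 reads in the 33 other cells, and the depth of cells 38 and 39 is unknown. The 6 cells had 2513 to 5298 genes at 1 CPM, and the others 1866 to 4268. The values of cell 39 summed to 351255 CPM, the lowest of the 6, where the other 5 summed to 528479 to 1168850 CPM, and the values below are not rescaled unless stated. The ribosomal RNA precursor Rn45s took 0.383% to 1.22% of the summed CPM in the 6 cells and 8.42% to 31.2% in the others. Rorb, an orphan nuclear receptor gene, had a median of 38444 CPM in the 6 and 42.7 CPM in the others. The part of these differences in what follows was not tested.

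Many genes with high levels in these cells are known targets of liver-enriched transcription factors, among them HNF1 and the FOXA (HNF3) proteins. The 250 bases before the start of 4 such genes are shown as examples of promoters that hold such patterns. The 4 genes and the patterns were picked after the promoters had been looked at, so the matches in them describe these 4 and nothing more. The sequences are from RefSeq (GRCm38.p6, while the expression values were made on mm9), run 5′ to 3′ in the direction of the gene, and carry in capitals any match to GTTAAT, a site arm of HNF1, or to TGTTTGC, a core bound by FOX proteins, on either strand.
Alb (chr5:90460620-90460869, plus strand): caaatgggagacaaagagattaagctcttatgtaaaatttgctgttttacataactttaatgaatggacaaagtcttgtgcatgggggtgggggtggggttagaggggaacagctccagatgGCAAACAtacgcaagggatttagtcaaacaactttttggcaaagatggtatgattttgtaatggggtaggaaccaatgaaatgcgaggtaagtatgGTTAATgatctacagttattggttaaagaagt
Apoa1 (chr9:46228380-46228629, plus strand): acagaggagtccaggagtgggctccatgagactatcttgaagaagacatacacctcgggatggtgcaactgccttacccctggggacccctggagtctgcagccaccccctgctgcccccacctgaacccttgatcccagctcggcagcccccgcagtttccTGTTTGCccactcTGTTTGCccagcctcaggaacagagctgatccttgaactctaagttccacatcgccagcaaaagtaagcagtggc
Fabp1 (chr6:71199629-71199878, plus strand): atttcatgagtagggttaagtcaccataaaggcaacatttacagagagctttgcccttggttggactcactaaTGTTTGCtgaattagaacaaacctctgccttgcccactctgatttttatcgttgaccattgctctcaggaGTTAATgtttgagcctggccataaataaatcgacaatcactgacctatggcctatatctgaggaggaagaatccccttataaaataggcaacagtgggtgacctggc
Serpina1e (chr12:103956898-103957147, minus strand): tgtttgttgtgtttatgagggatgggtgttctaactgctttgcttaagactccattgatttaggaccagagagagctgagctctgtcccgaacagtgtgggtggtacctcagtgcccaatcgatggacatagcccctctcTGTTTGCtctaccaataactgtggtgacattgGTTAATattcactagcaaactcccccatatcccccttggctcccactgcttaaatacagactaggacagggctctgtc
TGTTTGC started 128 bases before the start of Alb, 88 and 75 before Apoa1, 177 before Fabp1 and 110 before Serpina1e. GTTAAT occurred 32 bases before Alb, 107 before Fabp1 and 78 before Serpina1e, and not in this window of Apoa1.

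Across genes, 370 of 10061 symbols were called higher in the 6 cells (3.68%), meaning a median of at least 100 CPM that, with 1 CPM added to both, was at least 10 times the median of the 33 others. By the reverse rule 67 symbols were called lower (0.666%). For 123 symbols (1.22%) the lowest of the 6 cells was at 1 CPM or more and above the highest of the 33. With cells 1 to 4 alone the counts were 449, 69 and 171, and 343 symbols were called higher in both. A promoter was found for 282 of the 370 genes. Of these 282, 12.4% held GTTAAT in the 250 bases, against 5.37% of the 7567 measured symbols with a promoter and 7.49% of all 27025 symbols in the table. For TGTTTGC the shares were 8.51%, 4.33% and 4.93%, for TGTTTAC, the other FOX core, 4.61%, 2.70% and 3.54%, and for the C/EBP pattern TTGCNNAAT 5.32%, 1.96% and 2.45%. The HNF4 site arms CAAAGTCCA and CAAAGGTCA were found in 0.709% of the genes called higher, each, and in 0.383% and 0.489% of the measured symbols. TATAAA was found in 16.0%, 8.76% and 14.3%. The full HNF1 palindrome, 2 facing copies of GTTAAT with 1 base between them, and TTGCGCAAT, a case of TTGCNNAAT, were found in 0 of the 282 and in 1 and 8 of the 7567. Both strands were searched, and a symbol counted when any of its listed starts held the pattern. GTTAAT and TGTTTGC were picked after promoters had been looked at, so their shares are a description only, and no share was tested.

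The hepatocyte label was set against a list of 34 markers. The list holds Apoa1, whose part in the counts below was fixed by the choice of the cells. Alb, the main plasma protein, stood at 13202, 46892, 39190.0, 24022, 30035 and 14267 CPM in cells 1, 2, 3, 4, 38 and 39, and had a median of 4.19 CPM in the others, of which 14 reached 100 CPM (highest 20694). Fabp1, a fatty acid binding protein of hepatocytes and gut, ranged from 2333 to 9994 CPM in the 6 and did not pass 0.519 CPM in any other cell. Serpina3k, a secreted protease inhibitor, ranged from 4036 to 14794 CPM and reached 233 CPM at most elsewhere. Of the 34 markers, 26 to 33 reached 100 CPM in each of the 6 cells and a median of 2 in the others (highest 17, in cell 31). Called higher were 29 of the 34 (28 with cells 1 to 4 alone), against 3.68% of all symbols. For 14 of the 34, against 1.22% of all symbols, the groups did not overlap.

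**Figure D2:**
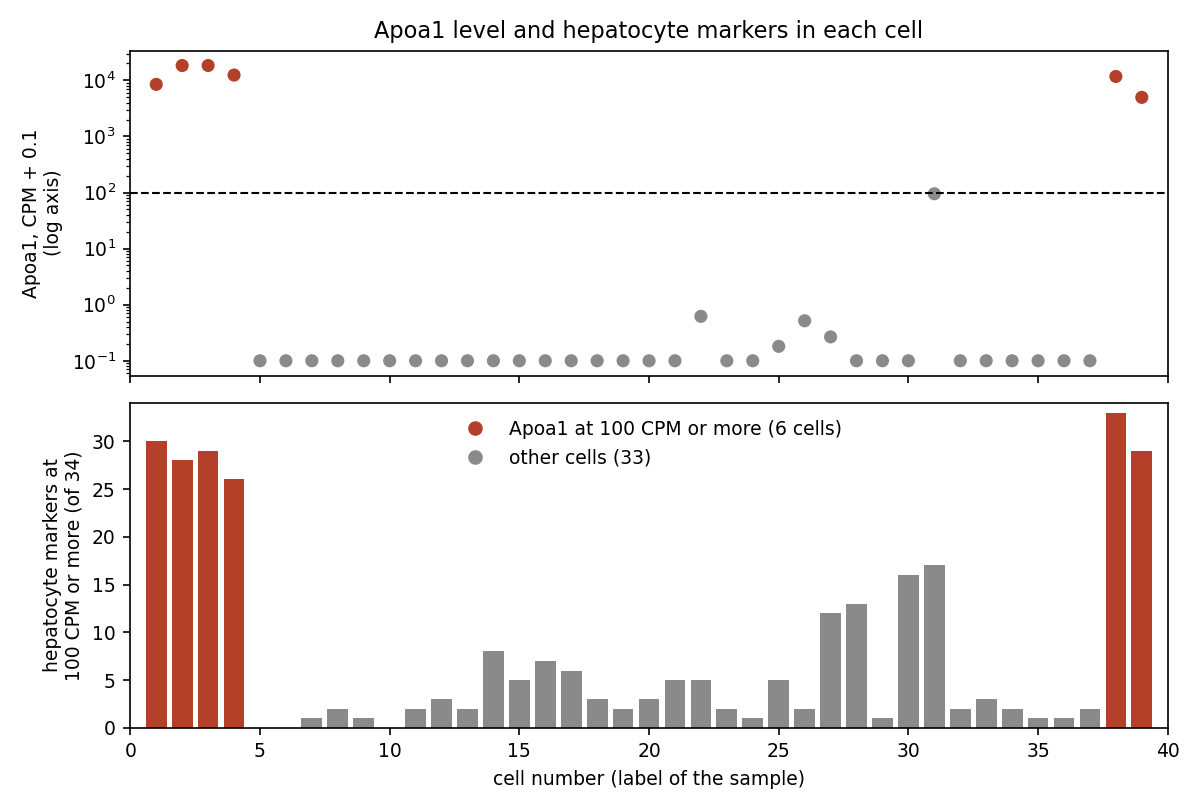
Apoa1 level on a log axis (top, CPM plus 0.1, dashed line at the threshold) and the number of the 34 hepatocyte markers at 100 CPM or more (bottom) for cells 1 to 39, with the 6 chosen cells in red. The chosen cells hold 26 to 33 markers, Apoa1 included, and cells 27, 28, 30 and 31 hold 12, 13, 16 and 17.

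Secreted plasma proteins made up a large part of the genes called higher. Of 134 such genes, 92 were called higher (90 with cells 1 to 4 alone) and none lower, against 3.68% and 0.666% of all symbols. In each of the 6 cells 78 to 102 reached 100 CPM, against 3 to 35 in the others. Among the 21 apolipoprotein and lipoprotein assembly genes 15 were called higher. The call of Apoa1, in this list and in the 134, was fixed by the choice of the cells. Apoa2, the second protein of high-density lipoprotein, was at 9063, 10580.5, 8213, 6953, 4584 and 1809 CPM in cells 1, 2, 3, 4, 38 and 39. Cell 39 was the lowest of the 6, and no other cell passed 4.72 CPM. Apoc3, an inhibitor of lipoprotein lipase, ranged from 692 to 5300.2 CPM and was listed at 0 in all 33 others. Apoe, a ligand for lipoprotein uptake that many cell types make, ranged from 3461 to 16450.3 CPM but reached 100 CPM in 15 other cells, the highest at 23851 CPM. Apob, the scaffold protein of very-low-density lipoprotein, went against its list: it was listed at 0 in cells 1 and 2, was 19.7, 117, 43.3 and 0.147 CPM in cells 3, 4, 38 and 39, and reached 100 CPM in 9 other cells, up to 10319.5 CPM. Mttp, which loads lipid onto that protein, stayed between 0.212 and 49.3 CPM in the 6.

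Plasma carriers were called higher in 15 of 20 genes and protease inhibitors in 18 of 22, against 3.68% of all symbols. Hpx, the heme carrier hemopexin, was 1646, 7725, 8175, 4510.0, 5394 and 1677 CPM in cells 1, 2, 3, 4, 38 and 39 and at most 707 CPM elsewhere, so the groups did not overlap. Trf, the iron carrier transferrin, was 4239.7 to 22745 CPM in the 6, but 18 of the other cells reached 100 CPM and the highest of them was 16102 CPM. Ttr, the carrier of thyroid hormone and retinol-binding protein, ranged from 1393 to 9026 CPM, against a highest other value of 2890.1 CPM in a group where 13 cells reached 100 CPM. The alpha-1-antitrypsin copies stood high in all 6 cells. Serpina1e was 1217, 19307, 10933, 9737, 7407 and 5896 CPM, lowest in cell 1, and reached 100 CPM in 1 other cell. Serpina1c was 3858 to 15097 CPM and reached 100 CPM in 7 others. The copies are close in sequence, so the division of reads among them is uncertain.

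The clotting, complement and acute phase lists were called higher in 11 of 19, 12 of 20 and 11 of 18 genes (3.68% of all symbols). Fgb, a chain of fibrinogen, was 2121, 4488, 3247, 2122, 3137 and 1194 CPM in cells 1, 2, 3, 4, 38 and 39, with 2 other cells at 100 CPM or more, 1 of them cell 31 at 6703 CPM. Kng1, the precursor of kinins, was 648 to 2619 CPM and at most 452 CPM elsewhere. C3, the central complement protein, did not mark the 6 cells: it was 912 to 3493 CPM there, and the median of the others was 3004 CPM with 25 of them at 100 CPM. Saa1, an acute phase apolipoprotein, was 3789.5, 5695, 4681, 2046, 2512 and 1189 CPM and did not exceed 0.08 CPM in any other cell. Hamp, the iron hormone hepcidin, was uneven among the 6 at 1.67, 92.0, 345, 364, 642 and 39.3 CPM and was listed at 0 in all 33 others.

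Major urinary proteins, small pheromone carriers that mouse liver makes in bulk, held the largest differences of all genes. Of the 15 symbols with the largest difference in mean log2(CPM + 1), 8 were Mup symbols, led by Mup19 and Mup14. The others were Apoa1, by which the cells were chosen, Serpina3k, Apoa2, Fabp1 and Serpina1e, with LOC100048884 and Gm2083, whose symbols alone give no gene family. Called higher were 15 of 20 Mup symbols, and for each of those 15 the groups did not overlap (3.68% and 1.22% of all symbols). Mup19 was 68965, 28839, 23712, 22025, 10047 and 1469 CPM in cells 1, 2, 3, 4, 38 and 39, highest in cell 1 and lowest in cell 39, and at most 0.289 CPM elsewhere. Mup13 was 15233 CPM in cell 1 and 0.204 to 14.0 CPM in the other 5, while Mup20 was lowest in cells 39 and 1 at 3232 and 3351 CPM and reached 17254 CPM in cell 2. These genes are near-identical copies, and the division of reads among them is uncertain, so the family is better read as a whole.

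**Figure D3:**
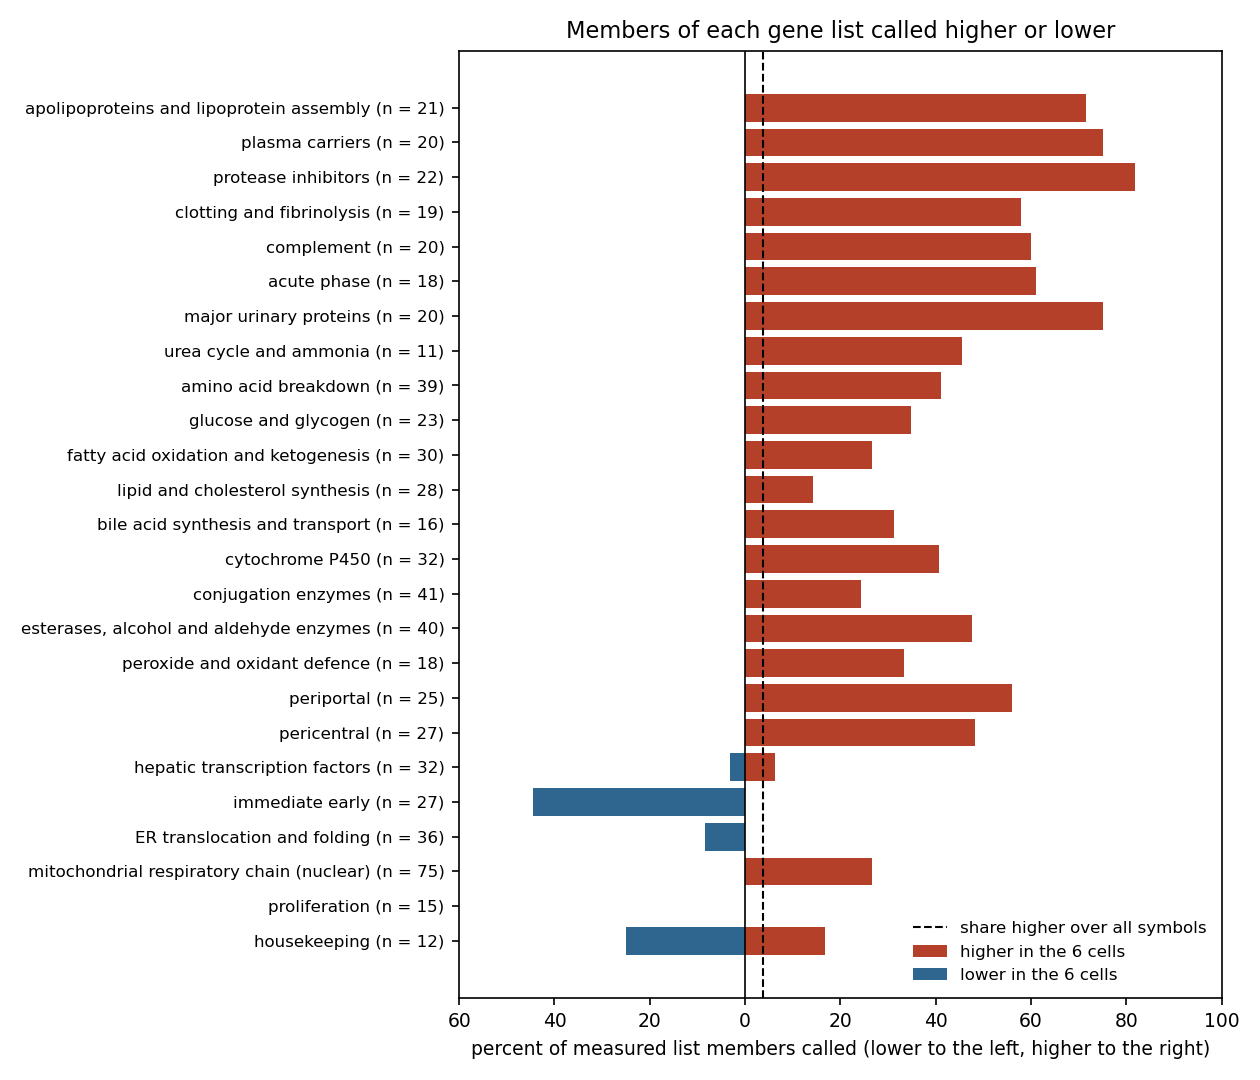
Percent of the measured members of each gene list called higher (red, right) or lower (blue, left) in the 6 cells, with the number measured beside each name and a dashed line at 3.68%, the share called higher over all symbols. Cell type marker lists are not plotted. Among the lists plotted, the secreted protein lists reach the highest shares, 57.9% to 81.8% called higher (the hepatocyte markers had 85.3%), and 44.4% of the immediate early genes are called lower.

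Metabolism was called higher in fewer of its genes, 91 of 273 (101 with cells 1 to 4 alone), again with none called lower. The shares over all symbols were 3.68% higher and 0.666% lower. Each of the 6 cells had 85 to 134 of them at 100 CPM, against 7 to 44 in the others. The urea cycle had 5 of 11 called higher. Ass1, which joins citrulline and aspartate, was 76.8, 2617, 927, 986, 561 and 1173 CPM in cells 1, 2, 3, 4, 38 and 39. Cps1, the entry enzyme of the cycle, was 0.921, 1125, 88.9, 30.6, 375 and 98.9 CPM, and its median of 93.9 CPM missed the level for a call. As deposited, cell 1 was the lowest of the 6 for both and cell 2, which had the largest summed CPM, the highest. Nags, which makes the activator of Cps1, reached 2491 CPM in cell 2 and 44.6 CPM at most in the other 5.

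Amino acid breakdown had 16 of 39 genes called higher and 11 whose groups did not overlap (3.68% and 1.22% of all symbols). Gnmt, a methyltransferase that uses up surplus methionine, was even among the 6 at 1901, 2394, 3597, 1315, 1881 and 2086 CPM and at most 0.173 CPM elsewhere. Hpd, of tyrosine breakdown, was 2222, 1661, 1912, 43.9, 539.9 and 245 CPM and listed at 0 in all others. Tat, the first enzyme of that route, was 26.7, 166, 501, 10.6, 140.3 and 73.2 CPM. Both were lowest in cell 4. Bhmt, which remakes methionine from betaine, was 437 to 3003 CPM and at most 388 CPM elsewhere.

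Glucose and glycogen genes were called higher in 8 of 23, against 3.68% of all symbols. Pck1, a key enzyme of glucose synthesis, was 631, 1208, 928, 423, 1013 and 1380.4 CPM in cells 1, 2, 3, 4, 38 and 39, at most 1.09 CPM elsewhere, and did not overlap. Its partner G6pc, which releases free glucose, was 0.0921, 0.636, 3.16, 0.546, 127 and 339.6 CPM: it passed 100 CPM only in cells 38 and 39 and was listed at 0 in all 33 others.

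In fatty acid oxidation and ketogenesis 8 of 30 genes were called higher (11 with cells 1 to 4 alone), and 4 of 28 in lipid and cholesterol synthesis. The share over all symbols was 3.68%. Cpt1a, which admits fatty acids to the mitochondrion, was 0.212 to 44.4 CPM in the 6, below the level of a call, and reached 100 CPM in 7 of the others. Acaa1b, a peroxisomal thiolase, was 261 to 1862 CPM and at most 0.124 CPM elsewhere. Fasn, the fatty acid synthase, was 14.4, 222, 289, 0.273, 209 and 7.23 CPM.

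Bile acid genes were called higher in 5 of 16, against 3.68% of all symbols. Slc27a5, which activates bile acids, was 352, 1292, 448, 372, 135 and 328 CPM and at most 0.0807 CPM elsewhere. Cyp7a1, the rate-limiting enzyme of their synthesis, was listed at 0 in cells 1, 2, 4 and 39 and was 0.486 CPM in cell 3 and 58.9 CPM in cell 38. Abcb11, the export pump for bile salts, was 36.8, 0.212, 269, 27.0, 33.8 and 0 CPM. Slc10a1, which takes bile salts up from blood, was 69.0, 592, 27.6, 1.16, 247 and 249 CPM. Neither transporter was at 100 CPM in any other cell, and each was at 100 CPM in fewer than 4 of the 6.

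Cytochrome P450 genes, the oxidases of drug and steroid breakdown, were called higher in 13 of 32, against 3.68% of all symbols. For 9 of the list the groups did not overlap, against 1.22% of all symbols. Cyp2e1 was 3150.2, 1044, 909, 821, 334 and 29.7 CPM in cells 1, 2, 3, 4, 38 and 39 and at most 19.9 CPM elsewhere. Cyp3a11 was 1363, 2184, 1009, 473, 885 and 181 CPM and at most 0.173 CPM elsewhere. For both, cell 39 was the lowest of the 6. Cyp2d9, a steroid hydroxylase that is higher in male mice, was 301 to 2644 CPM, and Cyp4a12a, also higher in males, was 70.2 to 537 CPM. Conjugating enzymes had 10 of 41 called higher (13 with cells 1 to 4 alone). Gstp1, a glutathione transferase, reached 100 CPM in 22 other cells as well, but its 6 values of 3129.8 to 8926 CPM all lay above the highest other at 1945 CPM. Of the esterases and the alcohol and aldehyde enzymes, 19 of 40 were called higher, with Ces3a at 198 to 1604 CPM and at most 0.278 CPM elsewhere. Pon1, a secreted lactonase, was 1105, 859, 737, 593, 364 and 0.344 CPM, so it was under 1 CPM in cell 39 alone. Of 18 genes of oxidant defence 6 were called higher, with Cat, catalase, at 918 to 3407 CPM and Sod1 at 537 to 4664 CPM, while Gpx1 had medians of 2542 and 1869.8 CPM and was not called.

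**Figure D4:**
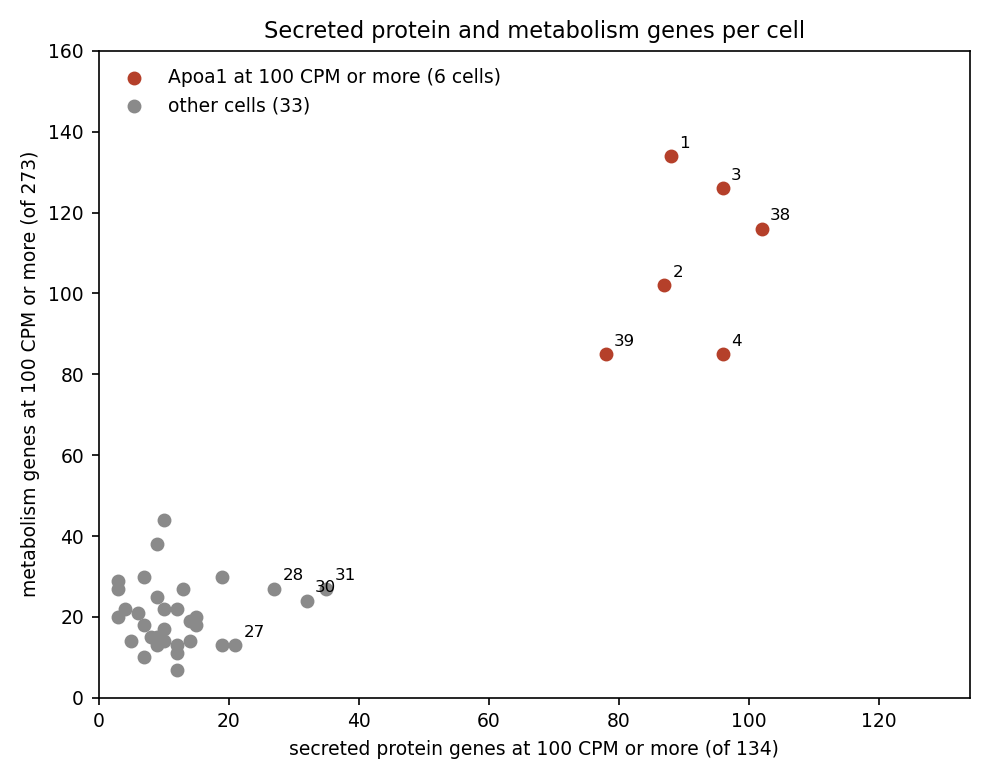
Number of 134 secreted protein genes (horizontal axis) and of 273 metabolism genes (vertical axis) at 100 CPM or more in each of the 39 cells, with the 6 chosen cells in red. The 6 cells lie at 78 to 102 and 85 to 134, and cells 31 and 30, with 35 and 32 secreted protein genes, have 27 and 24 metabolism genes.

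The other cells with the most hepatocyte markers also held many secreted protein genes, which make up much of the marker list. Cells 27, 28, 30 and 31 held 12, 13, 16 and 17 of the 34 hepatocyte markers at 100 CPM. They had 21, 27, 32 and 35 of the 134 secreted protein genes at that level, where the median of all 33 was 10, and 13, 27, 24 and 27 of the 273 metabolism genes, where the median was 20. Cell 31, the one just under the threshold, held Alb at 1695 CPM, Trf at 15537 CPM, Hp, the hemoglobin carrier haptoglobin, at 10156 CPM, and Gc, the vitamin D carrier, at 7247 CPM. The same cell was listed at 0 for Fabp1, Apoa2, Apoc3, Cps1, Hpd and Cyp3a11. Spp1, a secreted matrix protein of bile duct cells, was 25449, 43901, 10920.5 and 45368 CPM in cells 27, 28, 30 and 31. These 4 cells were picked after their values were seen, by a marker list that shares genes with the secreted protein lists. Their counts of secreted protein genes therefore follow in part from that choice.

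The 6 cells differed in the genes of liver zonation. Periportal genes were called higher in 14 of 25 and pericentral genes in 13 of 27, against 3.68% of all symbols. Cell by cell, the mean of log2(CPM + 1) over the periportal list minus that over the pericentral list was -3.85 in cell 1, 1.05 in cell 2, 1.18 in cell 3, 0.37 in cell 4, 0.79 in cell 38 and 3.78 in cell 39. Cells 1 and 39 were thus at opposite ends. Cell 1 had 23 of the 27 pericentral genes at 100 CPM and 10 of the 25 periportal ones, and cell 39 had 9 and 16. The 4 cells between them had 12 to 14 pericentral and 12 to 19 periportal genes at that level.

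Glul, glutamine synthetase, which marks the last cells around the central vein, was 463, 37.5, 72.6, 19.6, 88.7 and 0 CPM in cells 1, 2, 3, 4, 38 and 39, so only cell 1 passed 100 CPM. Oat, another pericentral enzyme, was 3544, 1697, 213, 70.1, 57.3 and 180.4 CPM. Lect2, a secreted pericentral protein, was 244 CPM in cell 1 and at most 16.5 CPM in the rest of the 6. Cell 1 was the highest of the 6 for all 3, as it was for Cyp2e1, Cyp1a2 and Gstm1, which stood at 3150.2, 704 and 4728 CPM there. Among periportal genes cell 1 was the lowest for Cps1, Ass1 and Hal, the first enzyme of histidine breakdown, which was 0.184, 421, 37.9, 27.8, 133 and 249 CPM. Cyp2f2, a periportal P450, was also lowest in cell 1 at 192 CPM and highest in cell 2 at 1968 CPM. Cell 39 held the highest values of G6pc and of Gls2, the periportal glutaminase, at 339.6 and 293 CPM, and was the one cell of the 6 with Etnppl at 100 CPM or more, at 303 CPM.

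Counted over genes at 100 CPM in any of the 6 cells, cell 1 was the highest of the 6 in 17 of 23 pericentral genes, where it was the highest in 25% of all 2213 such genes. It was the lowest in 9 of 21 periportal genes, against 15.5% of all. Cell 39 was the lowest in 14 of 23 pericentral genes, against 25.7% of all, and the highest in 6 of 21 periportal ones, against 7.68% of all. After rescaling each cell to the same sum, cell 1 was the highest in 17 of 24 pericentral genes (19% of all 2863) and the lowest in 14 of 23 periportal ones (21.9% of all). Cell 39 was then the lowest in 8 of 24 pericentral genes (14.6% of all) and the highest in 13 of 23 periportal ones (19.4% of all), and the differences of the means were -3.94 in cell 1 and 4.22 in cell 39. Cell 1 was also the deepest of cells 1 to 4, with 8702000 reads, and cell 39, like cell 38, looks like an averaged column. Without cells 38 and 39 the differences ran from -3.85 to 1.18, with cell 1 the only one below 0.

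**Figure D5:**
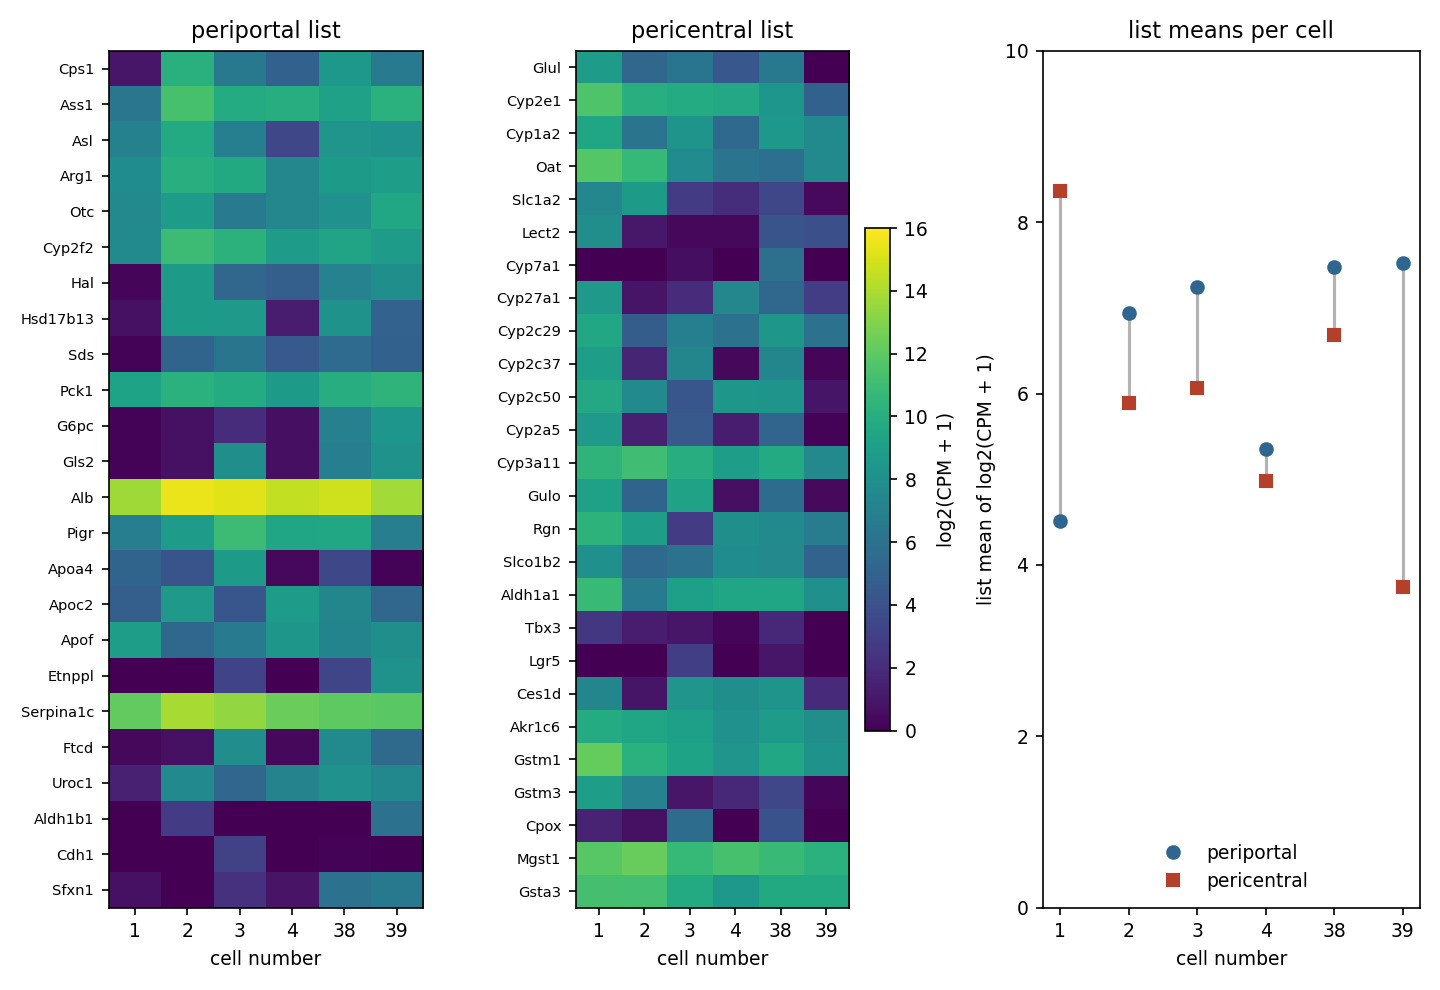
Levels of 24 periportal genes (left) and 26 pericentral genes (middle) as log2(CPM + 1) in cells 1, 2, 3, 4, 38 and 39, and the mean of each whole list in each cell (right, circles periportal, squares pericentral). Cell 1 has the higher pericentral mean (8.37 against 4.52) and cell 39 the higher periportal mean (7.53 against 3.75).

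The 6 cells were not alike gene by gene. Spearman correlation across genes, over the 15 pairs among them, ran from 0.498 to 0.581 (median 0.545), and the 198 pairs of a chosen and another cell ran from 0.0708 to 0.242. These are correlations across genes within single libraries and describe them only. Of the genes at 100 CPM in at least 1 of the 6, 188 were so in all 6, 116 in 5, 134 in 4, 197 in 3, 353 in 2 and 1225 in 1 cell alone. Among the genes with the largest range over the 6 were Lcat, Serpinf2, Agt, Acox2, Pon1, Tmed10, Akr7a5, Rpl12 and Krt18. Lcat, which esterifies cholesterol in plasma, was 191, 2631, 415, 565, 176 and 0.467 CPM. Cell 2 was the highest and cell 39 the lowest for Lcat, Serpinf2 (1681 and 0.344 CPM), Agt (1324 and 0.503 CPM), Tmed10 (1604 and 0.955 CPM) and Akr7a5 (1402 and 0.811 CPM).

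Of 32 hepatic transcription factors, Xbp1 and Creb3l3 were called higher (6.25%, against 3.68% of all symbols) and Nfib was called lower (3.12%, against 0.666%). After either rescaling 4 were called higher and 1 lower, where the calls over all symbols went from 370 to 507 and 518. A chosen cell had 1 to 6 of them at 100 CPM, where the median of the others was 4. Hnf4a, a central regulator of hepatocyte genes, was 154, 22.5, 2.19, 8.73, 593 and 331 CPM in cells 1, 2, 3, 4, 38 and 39, and reached 100 CPM in 4 other cells, up to 7889 CPM. Creb3l3, a membrane-bound factor of fasting metabolism, was 6.08, 776, 225, 0.818, 127 and 98.5 CPM. Xbp1, which expands the secretory pathway, was 213, 586, 261, 0.546, 141 and 86.6 CPM. Single cells carried others: the xenobiotic receptor Nr1i3 was 525 CPM in cell 2, the bile acid receptor Nr1h4 143 CPM in cell 4, the oxysterol receptor Nr1h3 403 CPM in cell 3, and the partner receptor Rxra 131 CPM in cell 38. Onecut2 passed 100 CPM in cells 2, 3 and 38 and Nfia in cells 2 and 3, and both did so in 17 of the others.

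Of 36 genes of translocation into and folding in the endoplasmic reticulum, where secreted proteins are made, none was called higher (1 with cells 1 to 4 alone). Hspa5, Ssr3 and Ddost were called lower, 8.33% of the list against 0.666% of all symbols. When each cell was rescaled to the same sum, 3 of the 36 were called higher and 2 lower, so the direction of this list depends on the scaling. Hspa5, the main chaperone there, was 183, 3.61, 238, 58.1, 304 and 67.6 CPM, and the median of the others was 1305 CPM. P4hb, protein disulfide isomerase, was 76.5 to 2014 CPM with a median of 750.2 CPM, against 107 CPM in the others. Nuclear genes of the mitochondrial respiratory chain were called higher in 20 of 75 (26.7%, against 3.68% of all symbols) and lower in none. The count called higher was 28 with cells 1 to 4 alone, and 30 and 31 after the 2 rescalings.

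Genes lower in the 6 cells were led by immediate early genes, which respond within minutes to stress and to the dissociation of tissue. Of 27, 12 were called lower and none higher, under each of the 3 scalings. As deposited, 0.666% of all symbols were called lower. Jun was 0.184, 12.1, 0.728, 8.73, 78.4 and 17.9 CPM in the 6, and 32 of the 33 others were at 100 CPM or more (median 2855 CPM). Atf3 was listed at 0 in 5 of the 6 and was 0.0368 CPM in cell 38, with a median of 677 CPM in the others. Egr1 had medians of 2.56 and 1286 CPM. Fos was at most 15.3 CPM in the 6 except in cell 39, at 148 CPM, and had a median of 2488 CPM in the others. The remaining 8 were Fosb, Junb, Jund, Ier2, Dusp1, Klf6, Zfp36 and Btg2. The transcript with the largest difference in favour of the others was Lars2, a mitochondrial leucyl-tRNA synthetase gene, with medians of 0.982 and 12407 CPM. Like Rn45s and Rorb, Lars2 was left out of a further rescaling, and whether its reads come from that mRNA was not tested. Malat1, a nuclear non-coding RNA, had medians of 17.1 and 4059 CPM. Of 12 housekeeping genes 3 were called lower, among them Actb and Ywhaz, and Sdha and Pgk1 were called higher. The shares over all symbols were 0.666% lower and 3.68% higher.

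Bile duct markers were low but not all absent. Krt19 was listed at 0 in all 6 cells but was not called lower, as its median in the others was under 100 CPM too. Of the 20 measured members of the list, 10 stayed under 1 CPM in each of the 6 cells. Spp1, Tm4sf4, Krt8 and Krt18 were called lower, 20% of the measured members against 0.666% of all symbols. Krt18, also a keratin of hepatocytes, was 0.552, 1179, 262, 44.7, 182 and 729.8 CPM. Clu, clusterin, a secreted chaperone, was the 1 marker of the list at 100 CPM in all 6, at 1199, 1869.6, 1682, 794, 1212 and 1066 CPM, against a median of 7137 CPM in the others. Spp1 was 365 CPM in cell 2 and 161 CPM in cell 3.

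Markers of further cell types reached 100 CPM in cells 2, 3, 4, 38 and 39, and none did in cell 1. Cell 2 held Csf1r at 1358 CPM and Clec4f at 206 CPM, both of liver macrophages, with Vim, of mesenchymal and blood cells, at 1346 CPM and S100a8, of neutrophils, at 212 CPM. The summed level of the 10 macrophage markers was 1798 CPM in that cell and 6.14 to 108 CPM in the rest of the 6. Cell 3 held Dcn, of fibroblasts and stellate cells, at 153 CPM and Laptm5, of leukocytes, at 115 CPM. Cell 4 held Vim at 285 CPM and the endothelial marker Oit3 at 103 CPM. Dcn was also 119 CPM in cell 38, and the collagen gene Col3a1 was 152 CPM in cell 39. In cell 38 the sinusoidal endothelial marker Clec4g was 163 CPM, Ehd3 108 CPM and Cdh5 42.4 CPM. Clec4g was also 137 CPM in cell 2 and did not exceed 0.193 CPM in any of the 33 others. Alas2, the erythroid form of the first enzyme of heme synthesis, was 16.0, 0.424, 0.728, 35.5, 93.7 and 198 CPM, and at most 0.0807 CPM in the others. Of the 10 mesothelial markers, 8 stayed under 1 CPM in all 6 cells, as did 8 of the 9 granulocyte markers. The part of these transcripts in the other results was not tested, and no doublet caller was run.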

How the data were processed

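The deposited table holds log2 values for 13568 RefSeq transcripts in 39 cells. Bowtie 0.12.9, eXpress 1.5.1, edgeR (no version) and the build mm9 are named in the submitters' processing notes, with no role or order. All cells share the lowest value, -2.58, taken as no reads. Each log2 value deposited by the authors was raised as a power of 2, and 0.167, the linear value of that floor, was subtracted. The result is called CPM here, a scale inferred from the values. It was used as deposited: the cells summed to 351255 to 3128332 CPM. Transcripts were added up to 10061 symbols, 2155 of which had several.

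The gene lists (34, with 682 of 780 symbols measured), the rules and the members were chosen with earlier results of these data known. The rule for naming genes took the 4 given markers, up to 4 members per list by median in the 6 cells, textbook rate-limiting enzymes, the 15 and 10 largest differences of mean log2(CPM + 1) in each direction, the 10 largest ranges among the 6, Krt19 with bile duct markers, and transcription factors at 100 CPM in a chosen cell. Other genes, such as those listed for cell 31 and markers of further cell types, were picked after their values were seen. A value of 0 is reported as listed at 0. No test was run, since the members were chosen by the values compared and the labels give 1 group. Reads lack molecular identifiers and are not independent molecules, so depth gives counting precision only. The calling script was tested on simulated data. Python 3.11.15, pandas 2.3.3, numpy 2.4.6, scipy 1.17.1 and matplotlib 3.10.9 were used. Alternatives varied the scaling, the level, the fold, the threshold on Apoa1 and the cells. The lists without cells 38 and 39 and under other scalings, and the rescaled levels by cell, were added after seeing the data. Some genes that the rule selects are not reported here.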

Additional observations from a re-analysis of the deposited data

Results flagged for a closer look

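Among the 6 cells, 73 values (summed CPM and mean log2(CPM + 1) of the gene lists, with others of the report) were examined for a cell set far apart from the other 5, and 10 values stood out. Chance alone marks about 1 in 20 such groups, and the labels do not make these 6 cells a group of their own.

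Cell 2 stood apart in markers of other cell types. Its summed macrophage markers were 1798 CPM, against 6.14 to 108 CPM in the other 5 cells, and its fibroblast and stellate markers were 1391 CPM, against 33.6 to 304 CPM. Its granulocyte markers summed to 212 CPM, all but a little of it S100a8, against at most 0.273 CPM, and their mean log2 value was 0.86, against at most 0.04. Its mesothelial markers summed to 9.48 CPM, against 0.286 to 3.70 CPM. The urea cycle list summed to 9759 CPM in the same cell, against 1533 to 3309 CPM. These values are as deposited, and cell 2 had the largest sum of the 6, 1168850 CPM. With each cell rescaled to the same sum, its urea cycle mean log2 value was 7.33 (5.04 to 8.25 in the other 5), not the highest. Its rescaled marker means were 1.73 for fibroblast and stellate (0.80 to 2.58) and 0.45 for mesothelial (0.06 to 0.43). They were 4.01 for macrophage (0.92 to 2.59) and 0.83 for granulocyte (0 to 0.06).

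As deposited, cell 39 stood apart at the low end of 3 lists of secreted proteins. Its mean log2 value was 5.61 for the apolipoproteins (7.48 to 8.10 in the other 5 cells), 8.20 for the plasma carriers (9.24 to 9.81) and 7.19 for the major urinary proteins (9.09 to 10.21). Cell 39 also had the lowest sum of the 6, 351255 CPM against 528479 to 1168850 CPM. With each cell rescaled to the same sum its means were 6.71 for the apolipoproteins (7.29 to 8.77 in the other 5), 9.51 for the plasma carriers (9.22 to 10.72) and 8.45 for the major urinary proteins (9.42 to 10.63), so for the plasma carriers it was no longer the lowest. In cell 38 the proliferation genes summed to 67.1 CPM, against 1.10 to 17.7 CPM, most of it Tk1 at 42.9 CPM.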

How the results depend on the processing

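No cell was a replicate of another, so a value counts here as moved when a count changed by more than 1.5 times, or a median by more than the spread (SD) over the 6 cells. Of 74 alternative values of the main results, 66 did not move. Some of these had little or no room to move. A threshold of 1000 CPM on Apoa1 chose the same 6 cells, so its values were fixed. The SD of the zonation difference was 2.47, so its median could hardly count as moved. With each cell rescaled to a sum of 1000000 CPM, cell 31 passed the threshold on Apoa1, which made 7 cells, 43 genes were called lower and 13 were separated (main values 67 and 123). Rescaling without Rn45s, Lars2 and Rorb also gave 7 cells, with 14 separated, and a threshold of 10 CPM on Apoa1 gave 12 separated. A factor of 3 in place of 10 gave 107 genes called lower. A level of 10 CPM in place of 100 CPM gave 1032 called higher and 188 called lower, and a median of 32 hepatocyte markers per cell in place of 29. Leaving out each of the 6 cells in turn gave 338 to 394 genes called higher, 62 to 75 called lower, 127 to 154 separated and a median zonation difference of 0.79 to 1.05 (main value 0.92), and the median number of markers was 29 each time. Without cells 38 and 39, 28 of 30 list counts did not move, and the fibroblast and the endoplasmic reticulum lists went from 0 to 1 gene called higher. For the same 6 cells, genes called higher made up 84.7% of the calls as deposited, 91.0% after rescaling and 89.9% after rescaling without the 3 transcripts, and the median log2 difference over genes at 1 CPM in either set was 1.75, 2.14 and 1.99. The counts of genes separated thus rest on cell 31 staying outside the set. No paired analysis was possible because the labels give 1 group. Depth limits the low values: 1 CPM stood for 3.67 to 10.9 reads in cells 1 to 4.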

Other observations

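The labels give no sex, and transcripts of the sex chromosomes were not alike in the 6 cells and the others. Xist, the RNA that silences an X chromosome in female cells, was 1.27, 0.286, 1.48, 3.27e-06, 0.491 and 0.297 CPM in cells 1, 2, 3, 4, 38 and 39, and reached 10 CPM in 12 of the 33 others, the highest at 5463 CPM in cell 21. The summed level of the Y-linked genes Ddx3y, Eif2s3y and Uty was at 10 CPM or more for 4 of the 6, and for 9 of the 33. No cell reached 10 CPM for both Xist and the Y-linked sum, and 2 of the 6 and 12 of the 33 reached it for neither. In the 6 cells Ddx3y was 29.1, 2.32, 54.3, 0, 11.7 and 4.72 CPM. Mup20, Cyp2d9 and Cyp4a12a, liver genes known to be higher in male mice, were each called higher, and their 6 values lay above all 33 others. These calls set hepatocyte-like cells against other cells, so they cannot tell the sex of the animals. The cells at 10 CPM or more of Xist were all outside the set, so the comparison with the 33 others is also one between sets that differed in these transcripts, and its part in the results was not tested.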
